A study of Mus musculus with 12 samples.

Results

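The genes described here encode the pentose phosphate pathway and 1 further cytosolic source of NADPH, measured by RNA sequencing of mouse liver. They were chosen by symbol from the deposited expression table: G6pdx, Pgls, Pgd, Rpia, Rpe, Tkt, Taldo1 and Idh1, 8 genes among 12284 with a name, all 8 of them measured. The study compared 6 double knockout (DKO) livers with 6 control livers, called WT in the labels. Both groups were Acly f/f; Acss2 f/f mice given an AAV8 vector with the hepatocyte-directed TBG promoter at 6 to 8 weeks of age, and both ate a Western diet for 6 weeks, starting 1 week after the injection. The vector carried Cre in DKO mice and GFP in WT mice, so loss of the genes and presence of Cre cannot be told apart, and cells other than hepatocytes are not the target of this promoter. Acly makes cytosolic acetyl-CoA out of citrate and Acss2 makes it out of acetate. The comparison asks how livers with both genes targeted in hepatocytes differed from control livers on this same diet. The labels do not state that each library is from its own mouse, so the p-values describe the spread among libraries.

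NADPH carries the reducing power that cells spend on fatty acid and sterol synthesis and on regenerating reduced glutathione and thioredoxin. The oxidative branch of the pentose phosphate pathway makes NADPH while turning glucose 6-phosphate into ribulose 5-phosphate, and the non-oxidative branch exchanges carbon between pentose phosphates and the glycolytic intermediates. In liver, cytosolic isocitrate dehydrogenase and malic enzyme are further NADPH sources, and carbohydrate-rich feeding is known to raise several of these enzymes together with lipogenesis.

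Before the pathway, the targeted genes were examined in each library. Acly lay at 4.42 to 6.60 log2 CPM in DKO and 6.56 to 9.35 in WT, so that DKO 1 reached just into the WT range, and Acss2 lay at 3.59 to 5.74 in DKO and 6.12 to 7.45 in WT, without overlap. Both fell in DKO, by 2.51 and 2.18 on the log2 scale (limma adjusted p = 0.0165 and 0.00571).

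The values were log2 CPM, where CPM is a share of the library scaled to a fixed total, and 1 unit is a doubling. Genes were compared with limma, and a gene was called at a p-value below 0.05 after Benjamini-Hochberg adjustment over all 12284 genes. None of the 8 genes was called in either direction, where 1.74% of all genes were called, 0.619% higher and 1.12% lower in DKO. At an unadjusted limma p below 0.05 there was 1 of the 8, G6pdx, against 16.4% of all genes. For none of the 8 did the DKO and WT values separate without overlap, which 2.17% of all genes did. Of the 8 genes, 5 had a higher mean in DKO and 3 a lower one, and their median log2 fold change was 0.08 (0.0041 over all genes). Their median absolute log2 fold change was 0.14, against 0.16 for all genes. The count of called genes among the 8 was also 0 under each alternative fit and with any 1 library left out.

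**Figure D1:**
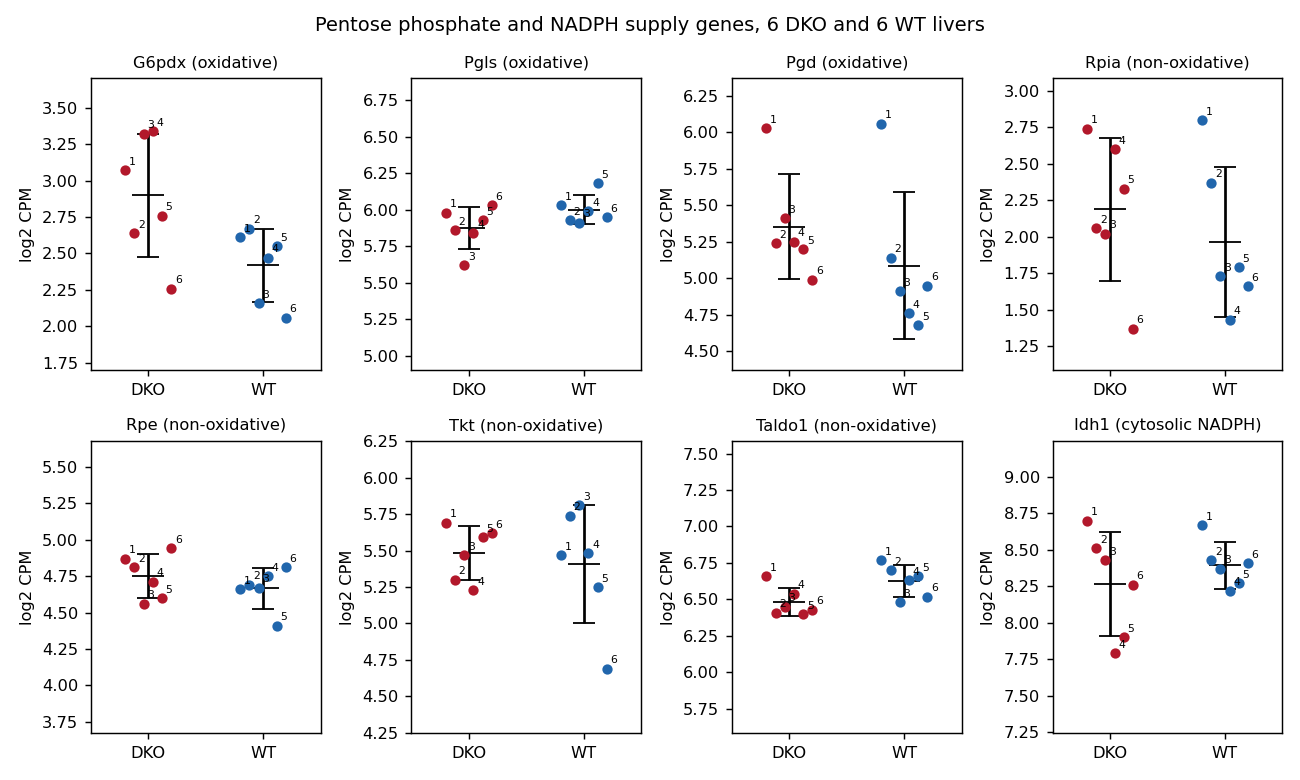
Log2 CPM of the 8 genes in each library (points, numbered by library; DKO left in red, WT right in blue) with the group mean and SD (black bars, n = 6 each); every panel spans the same range of log2 units. The groups overlap for all 8 genes, and G6pdx has 4 of 6 DKO libraries above the highest WT library.

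G6pdx encodes glucose 6-phosphate dehydrogenase, which commits glucose 6-phosphate to the pathway and makes its earliest NADPH. It had 3.07, 2.64, 3.32, 3.34, 2.76 and 2.26 log2 CPM in DKO livers 1 to 6, against 2.61, 2.67, 2.16, 2.47, 2.55 and 2.06 log2 CPM in WT livers 1 to 6. The DKO libraries 1, 3, 4 and 5 lay above the highest WT library, while DKO 6 lay below the WT mean. The means were 2.90 ± 0.42 log2 CPM in DKO and 2.42 ± 0.25 in WT (SD, n = 6 each), a 1.39-fold difference with a 95% interval of 1.04 to 1.87. On the log2 scale DKO exceeded WT by 0.48 (SE 0.20), which did not pass over all genes (limma adjusted p = 0.239; 2-sided exact permutation p = 0.0433, 1 of 8 such tests). It was the largest difference among the 8 genes and exceeded in size those of 86.8% of all genes.

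With single libraries left out, the G6pdx difference was 0.61 without DKO 6 (limma adjusted p = 0.0979), its highest value, and 0.39 without DKO 4 (adjusted p = 0.385), its lowest. Macrophages express this gene too, and 23 of 24 measured macrophage and monocyte markers were higher in DKO, with 3 called (Lyz2, Ccr2 and Gpnmb). The median log2 fold change of the 24 was 0.63. At an unadjusted limma p below 0.05 there were 20 higher and 0 lower, against 16.4% of all genes in either direction. Gpnmb was called in all 20 alternatives that could be fitted to it, whereas Ccr2 lost its call in 5 of 20 and Lyz2 in 10 of 21 (limma adjusted p up to 0.0605 and 0.0865). The summed level of the 24 markers was 631 to 1072 CPM in DKO and 537 to 954 CPM in WT. Cx3cr1 and Gpnmb sat at the bottom value of the deposited table in at least 1 library, with no marker there in all of them. Across the 12 libraries, after subtracting group means, G6pdx and that sum had a Pearson r of 0.14 (permutation p = 0.679, adjusted p = 0.906 over 8 genes). Their Spearman rho was 0.12 (permutation p = 0.736, adjusted p = 0.841). Without the 2 libraries farthest from the median of the sum, r was 0.34. Subtracting group means removes the difference between DKO and WT, so these correlations cannot show whether macrophages contributed to it. In whole tissue, more RNA per cell and more cells of a type cannot be told apart, and the part of macrophages in the G6pdx level was not tested.

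The stretch around the G6pdx start site is shown because this gene had the largest difference, and those of Pgd because it encodes the other NADPH-making enzyme of the oxidative branch. The sequences are RefSeq's for GRCm38.p6, 250 bases before to 50 after a start, written 5′ to 3′ on the strand of the gene, and the build differs from the GRCm39 named in the submitters' processing notes. The G6pdx sequence is chrX:74428831-74429130 on the minus strand. The Pgd sequences, for 2 annotated starts, are chr4:149166656-149166955 and chr4:149166033-149166332, also on the minus strand. Capitals mark the letters TGACNNNGC, the core of the antioxidant response element bound by NRF2, read on either strand.

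G6pdx: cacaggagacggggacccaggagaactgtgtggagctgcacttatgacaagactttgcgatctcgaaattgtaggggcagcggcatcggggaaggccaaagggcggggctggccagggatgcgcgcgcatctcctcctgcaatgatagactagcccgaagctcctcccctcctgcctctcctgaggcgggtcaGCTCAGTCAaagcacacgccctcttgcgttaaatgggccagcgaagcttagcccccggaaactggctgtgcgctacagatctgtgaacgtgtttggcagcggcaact
Pgd upstream start: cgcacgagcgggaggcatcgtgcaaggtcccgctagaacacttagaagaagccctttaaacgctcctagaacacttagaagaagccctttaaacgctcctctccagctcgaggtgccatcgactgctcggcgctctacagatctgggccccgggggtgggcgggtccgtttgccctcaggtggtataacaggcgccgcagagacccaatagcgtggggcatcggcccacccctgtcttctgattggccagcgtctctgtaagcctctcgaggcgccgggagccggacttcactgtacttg
Pgd downstream start: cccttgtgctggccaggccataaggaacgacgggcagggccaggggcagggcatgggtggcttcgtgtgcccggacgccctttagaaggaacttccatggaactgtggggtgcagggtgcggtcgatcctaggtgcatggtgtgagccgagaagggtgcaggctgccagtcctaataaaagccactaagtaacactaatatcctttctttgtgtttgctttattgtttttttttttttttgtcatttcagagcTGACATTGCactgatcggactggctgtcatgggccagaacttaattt

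All 8 genes had an entry in that table, with 10 promoter sequences between them. The match in G6pdx was on the opposite strand and began 57 bases before the start site. The match at the downstream Pgd start began 3 bases after it, and the other 8 sequences held none. This Pgd match thus lies within the transcript of that annotated start, not upstream of it. The bases just before the start, a t-rich run ending in cag, have the form of an intron end. Whether that stretch acts as a promoter was not tested. Among all 32851 promoters of this length, 12.4% held the same letters, so 2 of 10 is a description of these windows. A sterol regulatory element form, TCACNCCAC, which 1.24% of all promoters held, and the E-box CACGTG, which 7.15% held, were in 0 of the 10 sequences on either strand. No 2 matches overlapped.

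Pgls encodes 6-phosphogluconolactonase, the hydrolase between the NADPH-making steps. It had 5.98, 5.86, 5.62, 5.84, 5.93 and 6.03 log2 CPM in DKO livers and 6.03, 5.93, 5.91, 5.99, 6.18 and 5.95 log2 CPM in WT livers. DKO 2, 3 and 4 lay under the whole WT range, with DKO 3 the lowest. The DKO mean differed by -0.12 on the log2 scale (SE 0.08; exact permutation p = 0.110; limma adjusted p = 0.490), with an interval of 81.3% to 104% of the WT level. Pgls and G6pdx, which act in succession, had mean differences of opposite sign, and neither passed.

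Pgd encodes 6-phosphogluconate dehydrogenase, the second NADPH-making enzyme of the branch. Its level was 6.03, 5.24, 5.41, 5.25, 5.20 and 4.99 log2 CPM in DKO livers 1 to 6 and 6.06, 5.14, 4.91, 4.76, 4.68 and 4.95 log2 CPM in WT livers 1 to 6. The libraries numbered 1 stood highest in both groups, and 5 of 6 DKO libraries exceeded the WT mean of 5.09 ± 0.50 (5.35 ± 0.36 in DKO; SD, n = 6 each). Between the groups the log2 difference was 0.27 (SE 0.22; exact permutation p = 0.327; limma adjusted p = 0.598). Its size depended on these libraries, at 0.46 without WT 1 (limma adjusted p = 0.138) and 0.13 without DKO 1 (limma adjusted p = 0.823). With both left out it was 0.33 (SE 0.11, limma adjusted p = 0.148). The fit without both was added after the values had been seen.

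**Figure D2:**
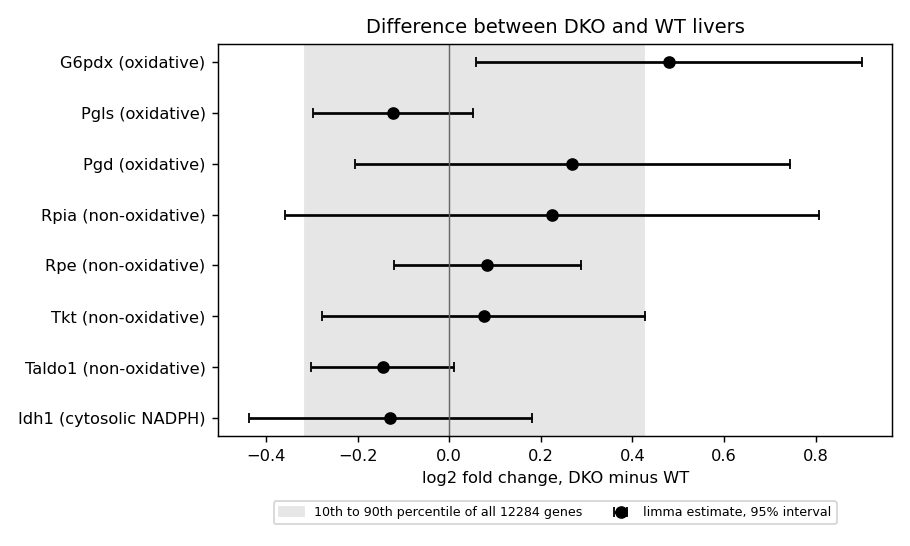
Log2 fold change of the 8 genes, DKO minus WT (points, limma), with 95% intervals (bars); the grey band spans the 10th to 90th percentile of the fold changes of all 12284 genes, -0.31 to 0.43. The interval of G6pdx alone lies to one side of 0, at 0.06 to 0.90 before adjustment for the number of genes.

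In the non-oxidative branch, Rpia encodes ribose 5-phosphate isomerase, which makes the ribose 5-phosphate used for nucleotides. Its values were 2.74, 2.06, 2.02, 2.60, 2.33 and 1.37 log2 CPM in DKO livers and 2.80, 2.37, 1.73, 1.43, 1.79 and 1.66 log2 CPM in WT livers. DKO 6 was the lowest of all 12 libraries and WT 1 the highest, and the ranges overlapped almost wholly. The groups differed by 0.22 on the log2 scale (SE 0.27; exact permutation p = 0.450; limma adjusted p = 0.738). Its interval, 78.0% to 175% of WT, was the widest in relative terms of the 8 genes, so a difference of moderate size was not detectable for Rpia.

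Rpe encodes ribulose 5-phosphate epimerase, which makes xylulose 5-phosphate. It had 4.87, 4.81, 4.56, 4.71, 4.60 and 4.94 log2 CPM in the DKO livers and 4.66, 4.69, 4.67, 4.75, 4.41 and 4.81 log2 CPM in the WT livers. The groups covered nearly the same range, with WT 5 lowest. Their log2 difference was 0.08 (SE 0.10; exact permutation p = 0.353; limma adjusted p = 0.722), and its interval was 91.9% to 122% of WT.

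Tkt encodes transketolase, which moves 2-carbon units between sugar phosphates. It had 5.69, 5.30, 5.47, 5.23, 5.59 and 5.62 log2 CPM in DKO livers and 5.47, 5.74, 5.81, 5.48, 5.25 and 4.69 log2 CPM in WT livers. WT 6 was the lowest library of the 12, and the spread was wider in WT (SD 0.19 in DKO and 0.40 in WT, n = 6 each). The mean difference was 0.08 on the log2 scale (SE 0.16; exact permutation p = 0.736; limma adjusted p = 0.870), with an interval of 82.6% to 134% of WT. Its sign turned to -0.07 without WT 6 (adjusted p = 0.845).

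Taldo1 encodes transaldolase, which moves 3-carbon units and, with transketolase, links the pathway back to glycolysis. Its level was 6.66, 6.41, 6.45, 6.54, 6.40 and 6.43 log2 CPM in DKO livers and 6.77, 6.70, 6.48, 6.63, 6.66 and 6.52 log2 CPM in WT livers. DKO libraries 2, 3, 5 and 6 lay below the lowest WT library, and DKO 1 was the only one above the WT mean. The means were 6.48 ± 0.10 log2 CPM in DKO and 6.63 ± 0.11 in WT (SD, n = 6 each). The difference was small, at 90.4% of WT with an interval of 81.1% to 101%, and it did not pass over all genes (log2 difference -0.15, SE 0.07; exact permutation p = 0.0368, 1 of 8 such tests; limma adjusted p = 0.340). Under quantile normalization of the libraries it was -0.07 (adjusted p = 0.705).

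The 2 genes with the smallest exact p, G6pdx and Taldo1, differed between the groups in opposite directions. The difference G6pdx minus Taldo1 within a library, in log2 units, was -4.17 to -3.13 in DKO and -4.46 to -4.03 in WT. It averaged -3.58 ± 0.38 in DKO and -4.21 ± 0.16 in WT (SD, n = 6 each). For the branches, the mean log2 CPM of the 3 oxidative genes was 4.71 ± 0.21 in DKO and 4.50 ± 0.22 in WT, and that of the 4 non-oxidative genes 4.73 ± 0.15 in DKO and 4.67 ± 0.20 in WT. These combined values were made from genes chosen with earlier results known and were not tested. G6pdx and Taldo1 are paired here for their small p and opposite directions, so the gap between the groups is wide by selection.

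Idh1 encodes cytosolic and peroxisomal isocitrate dehydrogenase, which makes NADPH from isocitrate, a neighbour of the citrate that ATP citrate lyase consumes. Its level was 8.70, 8.51, 8.43, 7.79, 7.90 and 8.26 log2 CPM in DKO livers and 8.67, 8.43, 8.37, 8.22, 8.27 and 8.41 log2 CPM in WT livers. DKO 4 and DKO 5 lay outside the WT range at its low end and DKO 1 at its high end, and the SD was 0.36 in DKO and 0.16 in WT. The group means differed by -0.13 on the log2 scale (SE 0.14; exact permutation p = 0.446; limma adjusted p = 0.717), with an interval of 73.9% to 113% of WT. Under quantile normalization its sign turned, at 0.02.

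**Figure D3:**
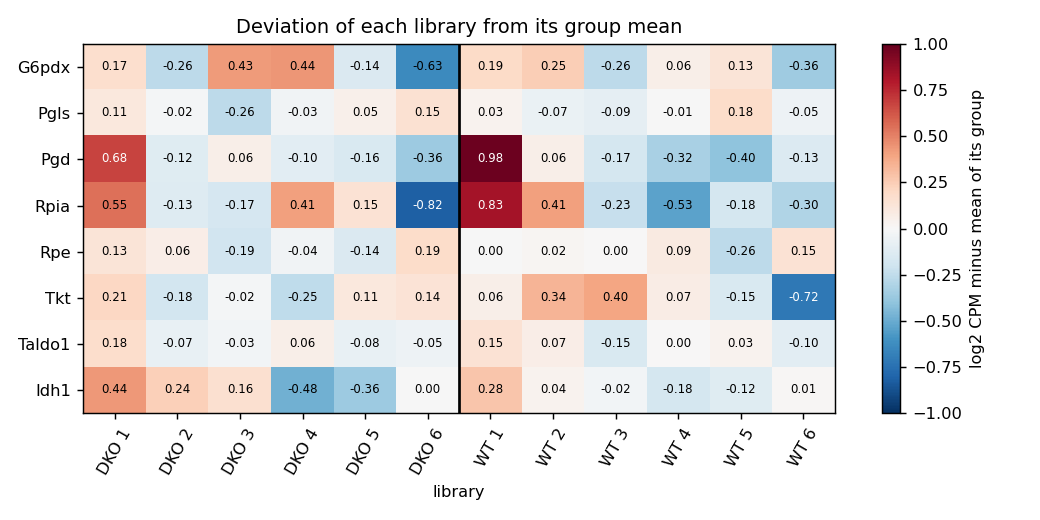
Log2 CPM of each gene in each library minus the mean of its group (6 DKO libraries left of the line, 6 WT libraries right; red above, blue below). The libraries numbered 1 are high for Pgd (0.68 in DKO 1 and 0.98 in WT 1) and Rpia, and DKO 6 and WT 6 are low for G6pdx.

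Within the groups, library DKO 1 ranked highest of the 6 DKO libraries for Pgd, Rpia, Tkt, Taldo1 and Idh1, and WT 1 ranked highest of the 6 WT libraries for Pgd, Rpia, Taldo1 and Idh1. The same libraries were highest in their groups for Acly (6.60 log2 CPM in DKO 1 and 9.35 in WT 1), Fasn (10.05 in DKO 1 and 9.87 in WT 1), the fatty acid synthase gene, and Sqle (5.46 in DKO 1 and 4.89 in WT 1), which encodes squalene epoxidase. The labels give no litter, date or run for the shared number.

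The 8 genes were compared in pairs across livers, and 12 libraries are too few to show that a pair does not vary together. Of 28 pairs, with values taken as deviations from group means, 20 had a positive Pearson r, and r ran from -0.53 for G6pdx with Rpe to 0.81 for Pgd with Rpia, with a median of 0.16. Pgd and Rpia had an r of 0.81 (permutation p = 0.00105, adjusted p = 0.0294 over 28 pairs) and a Spearman rho of 0.80 (permutation p = 0.00430, adjusted p = 0.120). It was the only pair with an adjusted p below 0.05 by Pearson's r, and no pair had one by Spearman's rho. Without DKO 1 and WT 1, the libraries farthest from the median of Pgd, r for this pair was 0.64. G6pdx and Taldo1 had an r of 0.63 within groups (permutation p = 0.0310, adjusted p = 0.145) and a rho of 0.72 (permutation p = 0.0116, adjusted p = 0.128), and r was 0.62 without WT 6 and DKO 6. Rpia with Taldo1 and Pgd with Taldo1 each had an r of 0.71 (permutation adjusted p = 0.123). Pgd with Idh1 and G6pdx with Rpia each had 0.64 (permutation adjusted p = 0.118 and 0.145). Without DKO 1 and WT 1, r was 0.43 for Rpia with Taldo1, 0.06 for Pgd with Taldo1 and 0.25 for Pgd with Idh1. Without WT 6 and DKO 6 it was 0.38 for G6pdx with Rpia.

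For each gene, the most similar profile was sought among 10342 other genes with an established symbol whose mean reached 1 log2 CPM. Repeated symbols, provisional gene or clone names and symbols turned into dates were left out. The most similar profile had the highest Pearson r over the 12 libraries after subtracting group means, and is given as a description without a p. Each r is a maximum picked from 10342 genes and is high by selection, from 0.83 to 0.97 over the 8 genes. It does not show that a pair is regulated together. Pgd was most like Fdps, the gene of farnesyl diphosphate synthase in the mevalonate pathway, with an r of 0.94 (Spearman rho 0.91; r 0.88 without the 2 libraries farthest from the median of Pgd). Idh1 was most like Hmgcs1, which encodes the cytosolic HMG-CoA synthase of the same pathway, with an r of 0.97 (rho 0.95; r 0.95 without 2 libraries). Fdps and Hmgcs1 were themselves not called (Fdps at 1.12 on the log2 scale, limma adjusted p = 0.221, and Hmgcs1 at -0.18, limma adjusted p = 0.813). Fdps was called without WT 1 (limma adjusted p = 0.0441) and with the replicate number as a block (limma adjusted p = 0.0281). G6pdx was most like Necap1 (r 0.90, rho 0.90), Pgls like Leap2 (r 0.90, rho 0.89), Rpia like Fam47e (r 0.89, rho 0.93), Rpe like Itga8 (r 0.95, rho 0.91), Tkt like Thada (r 0.83, rho 0.75) and Taldo1 like Rnf103 (r 0.89, rho 0.83). Of these 8 partners only Leap2, which encodes a liver-secreted peptide, was called, lower in DKO (log2 fold change -0.59, limma adjusted p = 0.0468), and that call was lost in 13 of 21 alternatives (adjusted p up to 0.106).

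**Figure D4:**
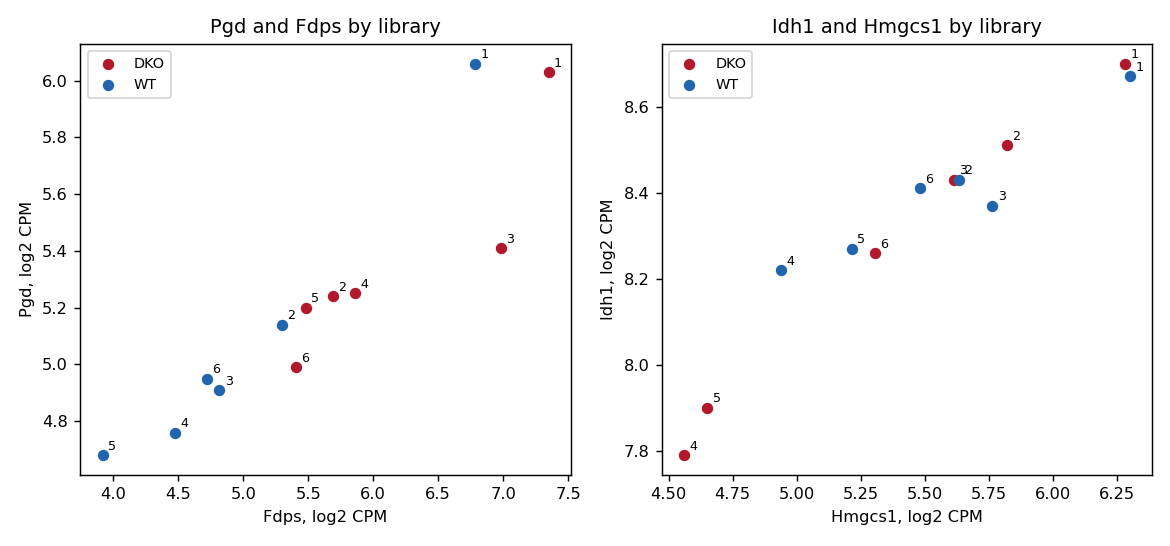
Log2 CPM of Pgd against Fdps (left) and of Idh1 against Hmgcs1 (right) in each library (red DKO, blue WT, numbered by library). Within each group the higher libraries of one gene are mostly the higher ones of the other, and for Fdps the DKO libraries lie to the right of WT libraries of similar Pgd level. Both partners were picked as the highest r among 10342 genes.

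Around the pathway, 67 further genes in 6 lists were measured, and 1 of them was called, lower in DKO, or 1.49%, a share near the 1.74% of all genes. Their median log2 fold change was -0.11, with 24 higher and 43 lower in DKO, where 49.2% of all genes were lower. At an unadjusted limma p below 0.05 there were 4 higher and 12 lower, against 16.4% of all genes in either direction.

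Among other enzymes of pentose and ribose phosphate metabolism, 9 of 10 measured were lower in DKO, as were 49.2% of all genes. At an unadjusted limma p below 0.05, 5 were lower and 0 higher, against 16.4% of all genes in either direction. The median log2 fold change of the 10 was -0.24, and limma called 0. Pgm2, a phosphoglucomutase put in this list by its symbol, was closest, at 7.68 ± 0.10 log2 CPM in DKO and 7.95 ± 0.11 in WT (SD, n = 6 each). It differed by -0.27 on the log2 scale (SE 0.07, limma adjusted p = 0.0780) and was called without WT 1 or with array weights. Pgm1, put among the glucose 6-phosphate genes below, differed by 0.39 (SE 0.19, limma adjusted p = 0.331). Pgm1 lay at 2.42 log2 CPM in DKO and 2.03 in WT, far below Pgm2. Which of these symbols names the enzyme acting on pentose phosphates was not checked. The placing of both genes, and with it the counts and medians of both lists, is therefore uncertain. Of 10 genes that make or use glucose 6-phosphate, 5 were higher and 5 lower, the median log2 fold change was -0.04, and limma called 0 (1 in each direction at an unadjusted p below 0.05). Hk1, hexokinase 1, had the smallest p (0.54 on the log2 scale, SE 0.23; limma adjusted p = 0.256).

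Other NADPH-producing enzymes and NAD kinases showed 3 of 10 genes higher and 7 lower in DKO, the median log2 fold change was -0.06, and limma called 0 at either threshold. Me1, cytosolic malic enzyme, spanned 6.72 to 9.47 log2 CPM in DKO (median 7.76) and 7.24 to 8.49 log2 CPM in WT (median 7.59). Its DKO values enclosed the WT range, and the groups differed by 0.30 (SE 0.40; limma adjusted p = 0.769). H6pd, the endoplasmic reticulum counterpart of G6pdx, differed by -0.17 on the log2 scale (SE 0.10; limma adjusted p = 0.417), and Idh2, the mitochondrial counterpart of Idh1, by -0.17 (SE 0.16, limma adjusted p = 0.653).

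On the side of NADPH use, 17 enzymes of fatty acid, sterol and sphingoid synthesis had a median log2 fold change of 0.18, with 10 higher and 7 lower, and 3 higher and 1 lower at an unadjusted limma p below 0.05. Hsd17b12, the ketoacyl-CoA reductase of fatty acid chain elongation, was the 1 called gene, and fell to 73.4% of WT (6.60 ± 0.13 log2 CPM in DKO and 7.05 ± 0.09 in WT, SD, n = 6 each; limma adjusted p = 0.0103; exact permutation p = 0.00216, the smallest that 6 against 6 libraries allow). Its groups did not overlap, at 6.44 to 6.77 log2 CPM in DKO and 6.92 to 7.16 log2 CPM in WT, and it was called in all alternative fits. Larger differences in the other direction did not pass. Sqle and Dhcr7, which encode enzymes of sterol synthesis and were picked out after their values were seen, were 1.91 (SE 0.62; limma adjusted p = 0.128) and 0.82 (SE 0.24; limma adjusted p = 0.1004) higher in DKO on the log2 scale. Both were called with array weights, with the replicate number as a block and without both libraries numbered 1. They were also called without WT 1 (limma adjusted p = 0.00743 for Sqle and 0.00902 for Dhcr7). Fasn, a large consumer of NADPH, differed by 0.20 on the log2 scale (SE 0.68; limma adjusted p = 0.923), which turned negative with array weights or without DKO 1, DKO 2, WT 4 or WT 5.

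Among 9 NADPH-using reductases of redox defence, 2 were higher and 7 lower in DKO, the median log2 fold change was -0.16, and limma called 0 (2 lower and 0 higher at an unadjusted p below 0.05). Blvrb, a flavin and biliverdin reductase, was nearest to the threshold at 6.10 ± 0.09 log2 CPM in DKO and 6.40 ± 0.11 in WT (SD, n = 6 each, limma adjusted p = 0.0526). It was called when genes with a mean below 1 log2 CPM were dropped, library medians subtracted, array weights used or WT 1 left out. With the replicate number as a block it was called too (limma adjusted p = 0.0463). Gsr, glutathione reductase, differed by -0.16 on the log2 scale (SE 0.10; limma adjusted p = 0.441). Of 11 regulators known for these enzymes, 3 were higher and 8 lower, the median log2 fold change was -0.13, and limma called 0 (3 lower at an unadjusted p below 0.05). Mlxipl, the gene of ChREBP, was closest (-0.59 on the log2 scale, SE 0.17, limma adjusted p = 0.0928). It was called with array weights (limma adjusted p = 0.0347) and with the replicate number as a block (limma adjusted p = 0.00621). Nfe2l2, the gene of NRF2, differed by 0.13 on the log2 scale (SE 0.12, limma adjusted p = 0.657) and Srebf1, the gene of SREBP-1, by -0.86 (SE 0.35, limma adjusted p = 0.230). Srebf1 was called with the replicate number as a block (limma adjusted p = 0.0284).

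**Figure D5:**
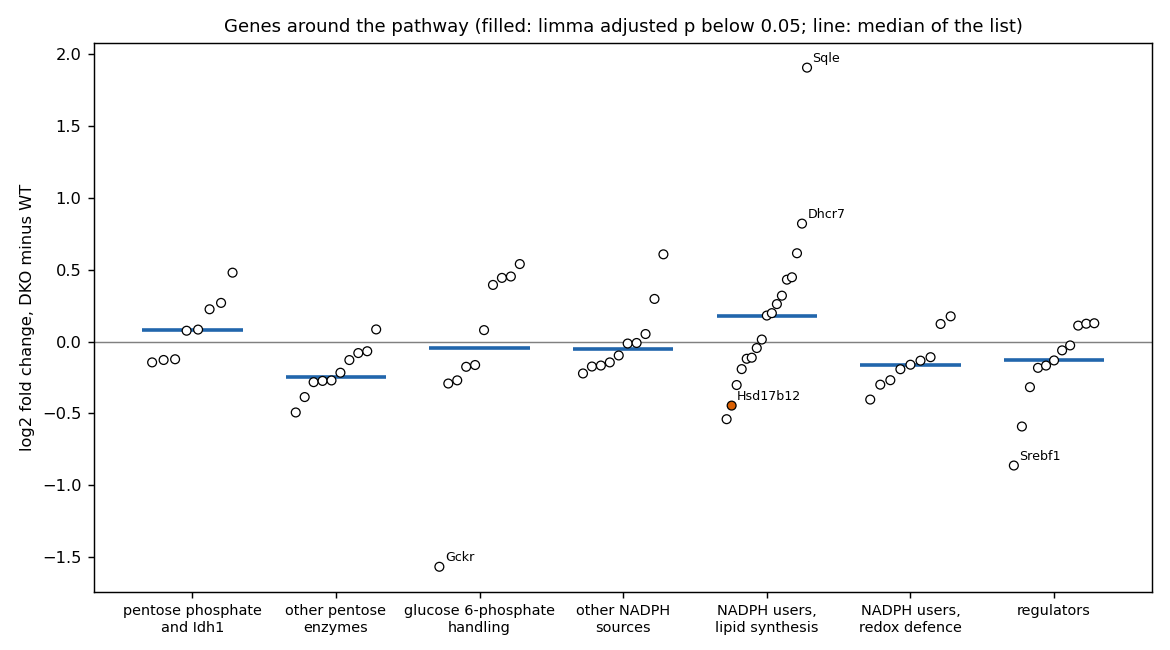
Log2 fold changes, DKO minus WT, of the 8 genes and of 6 lists of genes around the pathway (1 circle per gene, filled where limma's adjusted p was below 0.05, blue line at the median of each list). A single circle is filled, Hsd17b12 among the NADPH users of lipid synthesis. Of the other pentose enzymes, with Pgm2 included by its symbol, 9 of 10 circles lie below 0, as did 49.2% of all genes.

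As for the tissue label, hepatocyte markers stood at 81348 to 116610 summed CPM in DKO and 97604 to 114540 CPM in WT, with 3 of 15 markers higher, 12 lower and 2 called, Asgr1 and Serpina1c, both lower. The Asgr1 call was lost in 13 of 21 alternatives (-0.19 with limma adjusted p = 0.277 under quantile normalization, -0.35 as reported) and that of Serpina1c in 10 of 21 (limma adjusted p up to 0.0672). Endothelial markers were higher in DKO for 11 of 11 genes and stellate cell and fibroblast markers for 11 of 11, with 0 called by limma in each (5 and 8 at an unadjusted p below 0.05; Cdh5 had the smallest limma adjusted p of the endothelial markers, 0.120, and Col1a2 that of the stellate markers, 0.0787). Of the markers of cholangiocytes, 4 of 5 were higher and 1 called (Spp1), and of lymphocytes 3 of 4 were higher and 1 called (Ighm). The Ighm call was lost in 12 of 21 alternatives and that of Spp1 in 2 of 21, without DKO 1 or WT 6 (limma adjusted p up to 0.0998 and 0.0560). Red cell markers were higher for 5 of 5 genes and neutrophil markers for 2 of 2, with 0 called by limma (1 each at an unadjusted p below 0.05). What these cells contribute to the levels of the 8 genes was not tested.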

How the data were processed

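Polyadenylated RNA of 12 mouse liver libraries, 6 DKO and 6 WT by the genotype label, was sequenced. The authors deposited log2 CPM, filtered on low values and normalized between libraries, per the file name, in 12285 rows, with the cutoff and added count not given in the sources used here. kallisto 0.46.2, edgeR, limma and the GRCm39 (mm39) build are listed without roles in the submitters' processing notes. A row without a name, 0.0075% to 0.0148% of the CPM of a library, was left out. Back-transformed values summed to 905964 to 1087992 CPM per library, and depth is unknown, so no counting interval is given. The lowest value was -3.26 log2 CPM.

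limma 3.58.1 in R 4.3.3 (lmFit, eBayes with the mean trend, 2-sided) was fitted to 12284 genes without filter or covariate. In simulated data the fit was checked for recovery of known changes. Exact permutation tests used all 924 divisions into 6 and 6, and correlations 100000 permutations within groups (scipy 1.17.1). Figures were drawn with matplotlib 3.10.9. Members and lists were chosen with earlier results of these data known. The genes named were the 8 members, the targeted genes, a fixed set (Me1, Idh2, H6pd, Fasn, Gsr, Nfe2l2, Srebf1), the called genes of each list or the one with the smallest p, and the gene most like each member. Listed genes outside the table, such as Adgre1 and Tf, were not analysed here. Alternatives changed the trend, eBayes, pseudocount, filter, scaling, weights, block and single libraries; leaving out both libraries numbered 1 was added after seeing the data.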

Additional observations from a re-analysis of the deposited data

Results flagged for a closer look

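The following 2 values stood far from the rest of their group by Dixon's ratio (the gap to the nearest library divided by the range of the group, against the 95% critical value for 6 libraries). Pgd in WT 1 was at 6.06 log2 CPM, with the next WT library at 5.14, a ratio of 0.667. Rpe in WT 5 was at 4.41 log2 CPM, with the next at 4.66, a ratio of 0.635. A total of 16 groups of 6 libraries were examined, and chance flags about 1 in 20 groups.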

How the results depend on the processing

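None of the 8 genes was called in any of the 8 other fits to all libraries, in the 12 fits without 1 library, or without both libraries numbered 1. Directions also held, except that Tkt was -0.068 without WT 6 (range -0.068 to 0.155 over single libraries left out) and Idh1 0.0157 under quantile normalization. Fasn was -0.188 with array weights and ranged from -0.232 to 0.632 with 1 library left out. Over all genes, 214 calls became 138 without the mean trend, 109 under quantile normalization, 356 with array weights and 92 to 373 with 1 library left out (92 without WT 5 and 373 without WT 1). With the replicate number as a block there were 397 calls, 0 among the 8 genes and 7 among the 67 pathway genes (Blvrb, Mlxipl, Srebf1, Sqle, Dhcr7, Por and Hsd17b12); the SE of Pgd was then 0.103, against 0.222 without the block. The numbers were not taken as pairs in the reported fit, because the labels give them no meaning. Of 6 same-numbered pairs, 2 had deviations that correlated above 0.1 (-0.0770 to 0.287). With 6 candidates in the other group for each library, 7 of 12 libraries correlated best with their own number. Whether the number marks a pair was not tested, and these values are no ground against pairing. The pathway genes had 1 call, and 2 with low genes dropped or library medians subtracted, 6 with array weights, 3 without both libraries numbered 1, and 1 to 5 with 1 library left out (5 without WT 1). The cause of these shifts was not tested. Depth is unknown, so the precision rests on the spread between libraries. The 95% interval covered changes in both directions for all of the 8 genes but G6pdx.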

Other observations

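The 8 genes differed in how much they varied between livers of one group. Taldo1 had a within-group SD of 0.104 on the log2 scale, larger than that of 3.48% of all genes, and Pgls one of 0.124, larger than that of 7.46%. Rpia had 0.503, larger than that of 79.6% of all genes, and Pgd 0.438, larger than that of 73.7%. G6pdx lay between them at 0.347 and Idh1 at 0.276. Against the summed macrophage and monocyte markers, after subtracting group means over 12 libraries, Rpia had the highest Pearson r of the 8 genes, 0.65 (permutation p = 0.0329, adjusted p = 0.263 over 8 genes), with a Spearman rho of 0.62 (permutation p = 0.0401, adjusted p = 0.320) and an r of 0.53 without the 2 libraries farthest from the median of that sum.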
